A study of Mus musculus with 2 samples.

Results

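The cells described here were differentiating oligodendrocyte precursors and newly formed oligodendrocytes of the adult mouse striatum. They were chosen by their counts, as barcodes with 300 or more detected genes and at least 1 unique molecular identifier (UMI, one counted RNA molecule) for 3 or more of the 5 genes *Gpr17*, *Bmp4*, *Enpp6*, *Tcf7l2* and *Itpr2*. The rule selected 540 of the 12415 deposited barcodes, 299 from library 1 and 241 from library 2, which was 4.33% and 4.49% of the barcodes with 300 or more genes. The data were 2 droplet-based single-cell libraries (10x Genomics), replicates 1 and 2 of 1 untreated condition, made from striatum of mice aged 8 to 10 weeks, labelled glia enriched. The strain was C57/Bl6J in the samples' strain label and C57BL/6NTac in their extraction protocol, and the study's methods give a slightly younger age. No mutant allele, agent given to the animals or comparison group was labelled, and the tissue had been dissociated with pronase and passed through myelin debris removal. Per the study's methods, actinomycin D was in the recovery, pronase and trituration solutions, to keep stress from changing transcription. Those methods name more mice than there are libraries without saying how many entered each. Library 1 held 6978 barcodes with 44597660 UMIs (median 3852 per barcode) and library 2 held 5437 barcodes with 37982720 UMIs (median 5375).

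Oligodendrocyte precursors are dividing glia that tile the adult brain and carry PDGFRA and the proteoglycan NG2. On commitment they leave the cell cycle, extend many processes and pass through a short-lived state marked by the orphan receptor GPR17, before they either wrap axons with myelin or die. The 5 selection genes each mark a part of that passage: *Gpr17* encodes the orphan G protein-coupled receptor, *Bmp4* a secreted morphogen, *Enpp6* a choline phosphodiesterase of cells starting to myelinate, *Tcf7l2* a transcription factor of the Wnt pathway and *Itpr2* an intracellular calcium release channel.

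To place these cells, precursors were taken as barcodes with 3 or more of *Pdgfra*, *C1ql1*, *Lhfpl3*, *Cacng4*, *Cspg4* and *Matn4* (475 barcodes), and mature oligodendrocytes as barcodes with 4 or more of *Mog*, *Mobp*, *Mag*, *Opalin*, *Ermn* and *Cldn11* (2468 barcodes), in both cases without the selection panel and without the other outer panel. A further 40 barcodes held both outer panels without the selection panel and entered no comparison. Before any comparison, 120 of the 540 cells were left out, 29 because Scrublet marked them as doublets and 111 because a panel of another cell class was detected at least as fully as the best oligodendrocyte panel, with 20 meeting both criteria. The other class was astrocyte in 38 of these 111 cells, microglia in 37, endothelial in 29, mural in 4, neuron in 2 and neuroblast in 1. The comparisons therefore used 420 differentiating cells (226 and 194), 426 precursors (180 and 246) and 2071 mature cells (1052 and 1019). The libraries shared 9 barcode sequences, of which 1 belonged to a differentiating cell, in library 1.

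Among the 420 retained cells, 211 also held the precursor panel and not the mature one and are called early here (110 and 101 cells). A further 121 held the mature panel and not the precursor one and are called late (64 and 57), 45 held neither outer panel and are called gap cells (18 and 27), and 43 held both (34 and 9). Early cells made up 48.7% of the retained cells in library 1 (exact binomial 95% interval 42.0% to 55.4%) and 52.1% in library 2 (44.8% to 59.3%). Late cells made up 28.3% (22.5% to 34.7%) and 29.4% (23.1% to 36.3%), so these shares differed between libraries by less than their counting error. Cells with both outer panels made up 15.0% (10.6% to 20.4%) in library 1 and 4.64% (2.14% to 8.62%) in library 2, and these intervals did not overlap. Among all 540 selected cells the shares with both outer panels were 13.7% (10.0% to 18.1%) and 8.30% (5.14% to 12.5%), whose intervals did overlap, since the filters removed 7 of 41 such cells in library 1 and 11 of 20 in library 2. Of 100 selected gap cells 45 were retained, 18 of 61 in library 1 and 27 of 39 in library 2, and all losses were to the other-class check, against 110 of 120 and 101 of 112 early cells. All such intervals cover counting error only.

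The selection counted detected genes, so it favoured deeply sequenced cells. The median was 11784 and 10783 UMIs in the differentiating cells of libraries 1 and 2, against 5764 and 6568 in precursors and 8264 and 12073 in mature cells. Within the retained cells the median was 9455.5 and 9674 UMIs in early cells and 23847.5 and 22834 in late cells, and it was only 4118 and 3985 in gap cells, which at that depth had to carry a high density of the selection genes to be included. Just outside the threshold, 1651 barcodes held exactly 2 of the 5 genes, with a median of 8877 UMIs, while 321 held 3, 124 held 4 and 95 held all 5, with medians of 9886, 11487 and 18690 UMIs. When each barcode was thinned to 2000 UMIs, the rule selected 94 of 4500 barcodes in library 1 and 76 of 4084 in library 2, and all of them were among the 540. The late label depended on depth more than the early one. With stages assigned on barcodes thinned to 5000 UMIs, shallower barcodes being left out, 18 and 13 retained cells were late, against 64 and 57 at full depth. Early cells numbered 66 and 54, against 110 and 101.

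The combinations of selection genes describe the selection, and they differed between the outer-panel groups along with depth. Of the 420 cells, 111 held *Gpr17*, *Tcf7l2* and *Itpr2* alone, and 91 of these were early. All 5 genes were detected in 90 cells, of which 43 were early, 10 gap cells, 22 cells with both outer panels and 15 late. Detection of *Gpr17*, *Enpp6*, *Tcf7l2* and *Itpr2* without *Bmp4* was found in 59 cells, 43 of them late, and *Enpp6*, *Tcf7l2* and *Itpr2* without *Gpr17* in 29 cells, 26 of them late. By contrast, *Gpr17*, *Bmp4* and *Itpr2* alone were found in 30 cells, 28 of them early, and the same genes with *Tcf7l2* in 33 cells, 29 of them early. The 3 mostly early combinations had medians of 8818, 9924.5 and 9376 UMIs, in the order given. The 2 mostly late ones had medians of 22987 and 15869 UMIs, and cells with all 5 genes 18682. The part of depth in these combinations was not tested.

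Levels below are normalized counts (CPM, UMIs scaled to a fixed total) of the summed cells of a library and stage, scaled by the trimmed mean of M values (TMM), and values joined by a slash are library 1 and library 2. Levels of early, gap and late cells, and of the outer stages beside them, were scaled over 12 sums that hold each group apart, and levels of all differentiating cells, and of the outer stages beside those, over the 6 sums that were tested, so the same precursors or mature cells have slightly different values on these scales. Summed marker panels are on the same scales, and levels in microglial barcodes are CPM without TMM. The levels of the selection genes describe the selection and were not tested. *Gpr17* stood at 602/459 CPM in precursors, 1362/982 in early cells, 1074/866 in gap cells, 316/267 in late cells and 18.8/13.4 in mature cells. *Bmp4* stood at 11.8/6.15, 523/285, 743/349, 123/22.0 and 0.616/0.109 CPM in the same order. Both were therefore highest in early or gap cells and lower in late cells in both libraries.

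*Enpp6* was 0/0.559 CPM in precursors, 409/275 in early cells and 1817/2089 in gap cells, and was 749.8/579 in late and 246/276 in mature cells. *Tcf7l2* followed the same order with 16.0/28.0, 179/202, 988/1238, 474/393 and 41.0/34.2 CPM. *Itpr2* was 136/126, 278/291, 512/942, 243/243 and 8.00/6.41 CPM. Mature cells thus kept *Enpp6* at a level that no other selection gene kept, and 39.0% and 50.8% of them had at least 1 *Enpp6* UMI. As a measure of free RNA, the same counts in barcodes with at least 5 microglial markers gave *Enpp6* in 2.11% of 997 barcodes (median 7372 UMIs) and 1.39% of 1008 (median 5615.5 UMIs), *Gpr17* in 1.20% and 0.595%, and *Bmp4* in 0.201% and 0%, the last allowing up to 0.298%. *Tcf7l2* and *Itpr2* were detected in 43.2% and 31.2%, and in 50.9% and 41.5%, of those microglial barcodes, so these 2 genes separated the lineage from microglia less than the other 3. After thinning to 2000 UMIs, *Enpp6* was detected in 26.2% and 17.2% of early cells, 57.1% and 51.8% of late cells and 22.5% and 26.7% of mature cells, against 0.360% and 0.342% of the microglial barcodes.

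**Figure D1:**
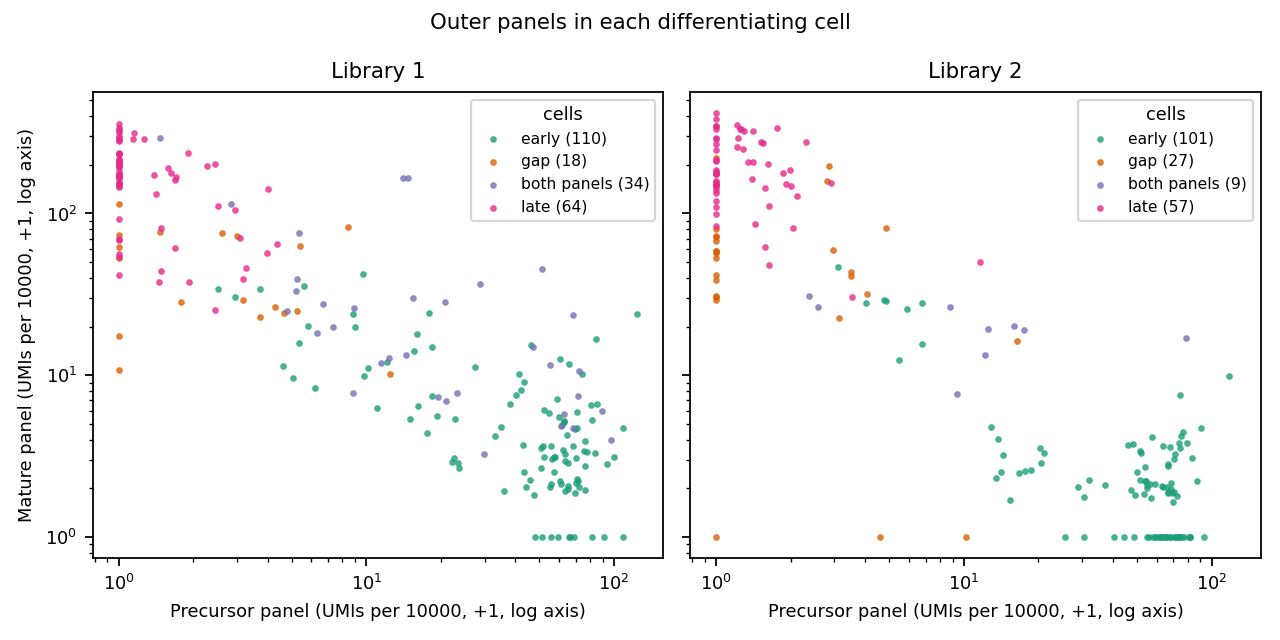
Summed UMIs of the precursor panel (horizontal axis) and of the mature panel (vertical axis) in each of the 420 retained cells, per 10000 UMIs of the cell with 1 added, on log axes, in library 1 (left, 226 cells) and library 2 (right, 194 cells). Colours mark early, gap, both-panel and late cells; most early cells lie to the lower right and late cells to the upper left in both libraries.

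The levels of the outer-panel genes describe how these cells were grouped and give no order in time. *Pdgfra*, the receptor that drives precursor division, was 1201/1251 CPM in precursors and 619/707 in early cells and was counted 0 times in the gap cells of both libraries. *Matn4*, a matrix protein, was 899/739, 539/464 and 101/30.4 CPM at those stages. Of the mature panel, *Mag*, the myelin-associated glycoprotein of the inner myelin layer, was 178/149 CPM in early and 1954/3950.0 in gap cells, and *Cldn11*, the tight-junction protein of myelin, was 333/198 and 1875/2780.2.

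The other mature-panel genes were lower in gap than in late cells, which the grouping largely fixed, since gap cells could hold at most 3 of the 6 mature-panel genes. *Mog*, at the outer myelin surface, was 245/129 CPM in gap cells, *Mobp* 57.7/258, *Opalin* 7.21/0 and *Ermn* 7.21/0, against 2077/2453, 5536/5382, 929/1858 and 1372/1330.2 in late cells. In microglial barcodes *Mobp* stood at 124/47.8 CPM and *Mog* at 35.4/24.7, so *Mobp* in early cells (74.7/22.3 CPM) was below this level of free RNA in each library and *Mog* in early cells (30.9/23.1 CPM) was close to it. *Mag* in late cells (8273/9137 CPM) was above its level in mature cells (5721/5147 CPM) in both libraries, while *Mog* and *Ermn* were below it.

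**Figure D2:**
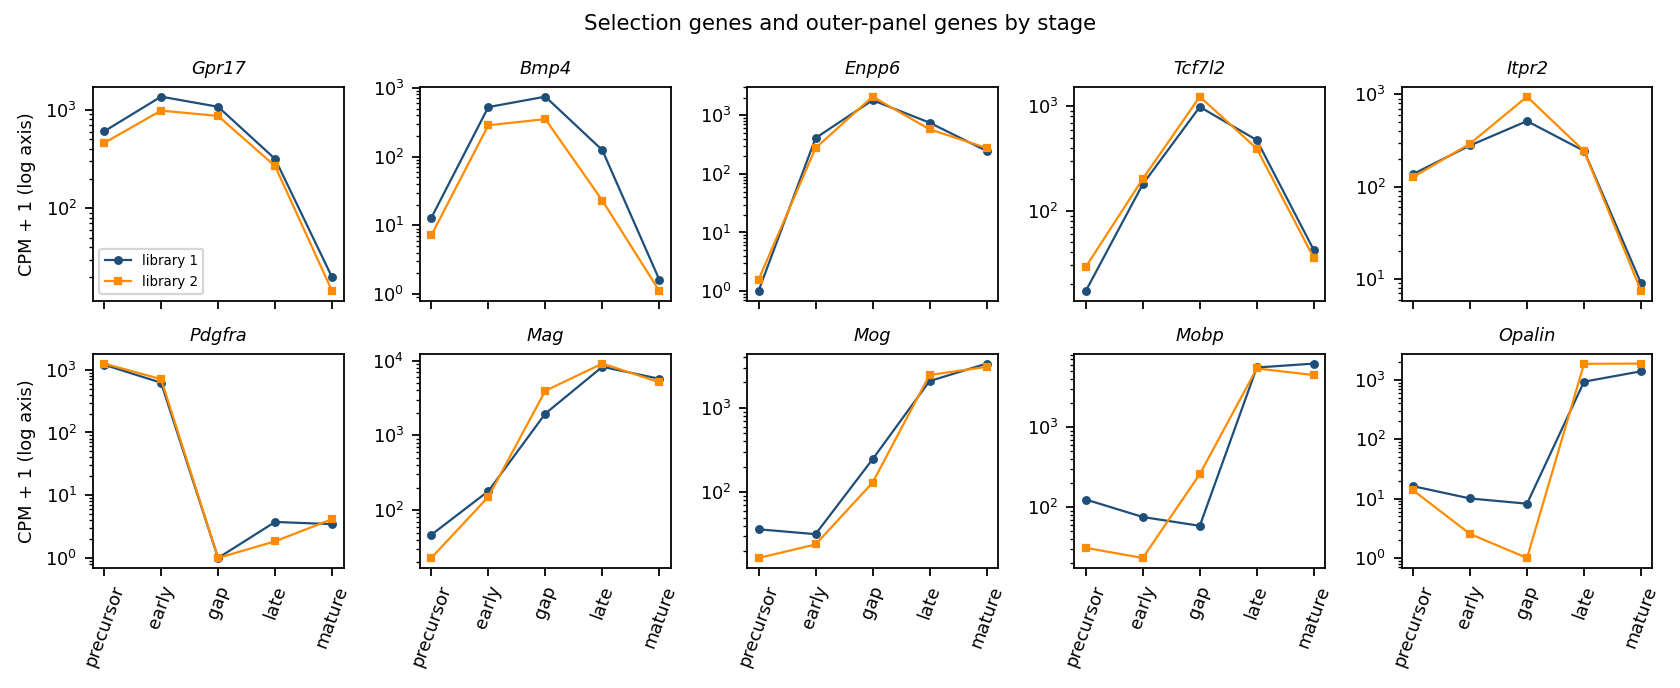
Level of 10 panel genes (CPM with 1 added, log axis) in precursors, early, gap, late and mature cells, one line per library; *Bmp4* and *Gpr17* peak in early or gap cells, *Enpp6*, *Tcf7l2* and *Itpr2* in gap cells, and *Mag* is nearer its mature level in gap cells than *Mog*, *Mobp* and *Opalin*.

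Genes with their highest level in the differentiating cells were sought with 1 contrast, all differentiating cells against the mean of precursors and mature cells on the log2 scale, in edgeR's quasi-likelihood fit with library as a block. The fit used 6 sums with 2 libraries behind each stage, and nothing in the labels says that these came from separate animals. With library as a block, p-values rest on how far the stage differences varied between these libraries, a spread that may be technical. The contrast called 2614 of 12357 genes (21.2% of genes tested), 1996 higher (16.2%) and 618 lower (5.0%), and with library sizes alone 2337 higher and 487 lower. The lower count was the less stable, at 186 to 1450 over the alternative settings against 840 to 2337 for the higher count. Of 1994 genes called higher with the same sign in both libraries, 732 stood above both outer stages in both libraries. The 17 panel genes and the marker genes of the other cell classes were left out of this and all other tests.

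The 10 genes that rose most, among those above both outer stages and at 20 CPM or more in both libraries, were a mixed group of adhesion molecules, metabolic enzymes, regulators and noncoding transcripts. *Epcam*, which encodes the epithelial cell adhesion molecule, was 88.2/56.2 CPM in early, 151/182 in gap and 4.82/4.23 in late cells, against 0/0.559 in precursors and 0.123/0.326 in mature cells. It was counted 331 times in the differentiating cells and 1 time in precursors, a ratio of 159 (exact 95% interval 28.3 to 6296) after scaling. Intervals of such count ratios, here and below, pool the UMIs of all cells and both libraries. They cover counting error only, without the spread between cells or libraries. Every early and gap value lay above every outer value, and the contrast called it higher (edgeR adjusted p = 6e-09).

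*Rassf10*, a Ras-association domain protein, was 3.38/1.68 CPM in precursors, 30.9/29.2 in early, 166/281 in gap, 92.9/84.5 in late and 0.123/0.326 in mature cells, a change of log2 6.43 ± 0.25 SE, edgeR adjusted p = 3.2e-09. *Mycl*, a member of the Myc family of transcription factors, was 27.8/27.4, 222/158, 267/167, 53.7/31.3 and 1.48/0.544 CPM (log2 4.65 ± 0.16 SE, edgeR adjusted p = 1.5e-09). *Kif19a*, a kinesin, was 5.06/2.80, 40.0/26.9, 209/159.5, 100.4/87.0 and 2.34/1.63 CPM (log2 4.59 ± 0.19 SE, edgeR adjusted p = 3.2e-09). *Rassf10* and *Kif19a* were thus also high in late cells, whereas *Epcam* and *Mycl* were higher in early than in late cells in both libraries. *Mycl* was also present in microglial barcodes, at 39.1/19.5 CPM.

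*Matn1*, a cartilage matrix protein, was 110.1/46.9 CPM in early and 28.2/22.0 in late cells, against 3.38/5.59 in precursors and 0.492/0.435 in mature cells (log2 5.08 ± 0.25 SE, edgeR adjusted p = 1.3e-08). *Pycr1*, an enzyme of proline synthesis, was 49.0/28.5, 34.4/16.1, 3.38/5.03 and 0.492/0 CPM in that order (log2 5.05 ± 0.35 SE, edgeR adjusted p = 3.2e-07). *Itgb7*, an integrin subunit, was counted 226 times in the differentiating cells and 2 times in precursors, with 123/129 CPM in gap cells (edgeR adjusted p = 9.1e-08). Both *Matn1* and *Pycr1* were higher in early than in late cells in each library.

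Noncoding transcripts were among the top genes as well. *9630013A20Rik* stood at 7.59/3.36 CPM in precursors, 156/154 in early, 1189.8/1474 in gap, 1172/1109 in late and 23.4/18.4 in mature cells (log2 5.96 ± 0.14 SE, edgeR adjusted p = 6.2e-11). *9530059O14Rik* was 1.69/1.68, 129/96.9, 627/828, 316/330.4 and 32.1/40.1 CPM (log2 4.98 ± 0.15 SE, edgeR adjusted p = 7e-10). *Gm36988* was counted 392 times in the differentiating cells and 1 time in precursors, and was 252/311 CPM in gap and 0.369/0.326 in mature cells (edgeR adjusted p = 3.2e-09). All 3 were highest in gap cells in both libraries. The endothelial and mural panels of the gap cells differed between the libraries, as given below, and their part in these levels was not tested.

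RefSeq start-site windows (250 bases before to 50 after the start, mouse build GRCm38.p6) were found for 11 of the 15 genes made up of these 10 top genes and the 5 selection genes, and were searched on both strands for ACAAAG (the SOX core), TCAAAG (the TCF/LEF core) and the E-boxes CAGCTG and CAGATG. The first 2 motifs differ only in their first base. CAGCTG was found in the windows of 3 top genes, *Matn1*, *9630013A20Rik* and *Pycr1*, and the first 2 are printed as examples with the motif in capitals.
Matn1 (chr4:130944135-130944434, plus strand): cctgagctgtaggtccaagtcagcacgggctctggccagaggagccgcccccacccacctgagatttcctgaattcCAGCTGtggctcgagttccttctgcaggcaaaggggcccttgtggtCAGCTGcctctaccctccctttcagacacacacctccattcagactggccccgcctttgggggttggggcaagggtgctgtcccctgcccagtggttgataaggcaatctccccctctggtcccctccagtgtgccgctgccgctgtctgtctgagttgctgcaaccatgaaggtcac
9630013A20Rik (chr14:84476375-84476674, minus strand): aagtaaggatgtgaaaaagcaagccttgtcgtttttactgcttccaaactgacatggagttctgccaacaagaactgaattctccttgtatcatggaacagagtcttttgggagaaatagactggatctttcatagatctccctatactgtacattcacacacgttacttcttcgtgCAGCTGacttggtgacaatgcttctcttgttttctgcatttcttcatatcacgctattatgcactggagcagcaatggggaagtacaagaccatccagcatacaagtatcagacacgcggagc
*Tcf7l2* had 2 listed windows, so the 11 genes had 12. CAGCTG was found in 3 of the 12 and in 16.3% of all 32851 windows, and CAGATG in 1 of the 12 and in 17.2% of all windows. ACAAAG was found in 1 of the 12, the second window of *Tcf7l2*, and TCAAAG in 0 of the 12, against 18.7% and 16.0% of all windows. A match is a run of letters only, and its absence covers these 300 bases.

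**Figure D3:**
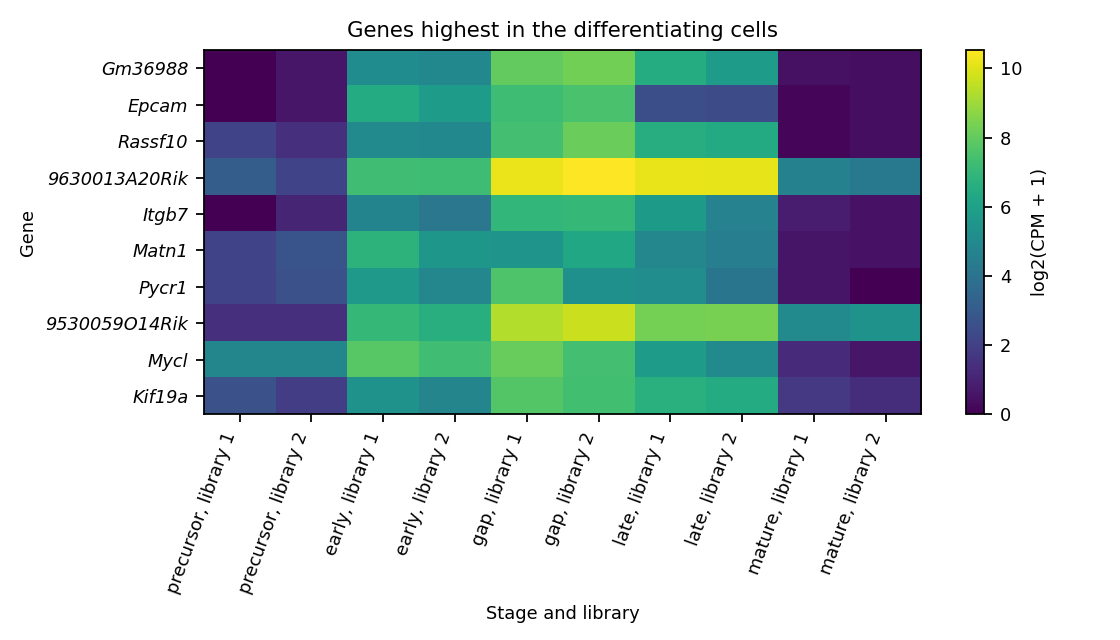
Level of the 10 genes that rose most in the differentiating cells (rows) in precursors, early, gap, late and mature cells of each library (columns), coloured by log2(CPM + 1). Values are low in both outer stages except for 9530059O14Rik and 9630013A20Rik in mature cells and *Mycl* in precursors, and are highest in early or gap cells.

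A smaller set of genes had its low point in the differentiating cells. *Tmem144* was 23.3/20.1 CPM in precursors, 15.7/16.2 in the differentiating cells and 68.1/75.2 in mature cells (log2 −1.29 ± 0.16 SE, edgeR adjusted p = 6.8e-05). *Abcg1*, a cholesterol exporter, was 82.6/127, 57.8/58.5 and 163/169 CPM (log2 −1.18 ± 0.13 SE, edgeR adjusted p = 1.9e-05). *Cavin3*, of caveolae, was 65.8/62.8, 46.5/51.6 and 162/229 CPM (log2 −1.17 ± 0.13 SE, edgeR adjusted p = 2.5e-05). *Htra1*, a secreted serine protease, and *Pmp22*, a peripheral myelin protein, completed the 5 genes with the largest falls among those at 20 CPM or more in both outer stages (log2 −1.15 ± 0.11 SE, edgeR adjusted p = 7.4e-06, and log2 −1.13 ± 0.11 SE, edgeR adjusted p = 9.9e-06).

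Compared with precursors, the differentiating cells had higher levels of oligodendrocyte genes and lower levels of precursor and division genes. The comparison called 4737 of 12357 genes (38.3%), 2540 higher (20.6%) and 2197 lower (17.8%). With library sizes alone the split was 1551 higher and 3970 lower, and that scaling moved the median log2 change of all genes from −0.01 to −0.32. Among called genes with the same sign in both libraries and 20 CPM or more in the higher stage, the largest rises included those of *St18*, *Epcam*, *Gm36988*, *9530059O14Rik*, *9630013A20Rik*, *Dubr* and *Rab7b*, and the 8 largest falls those of the division genes *Top2a*, *Prc1*, *Mki67* and *Ube2c*, the receptor and channel genes *Gria1* and *Kcnk3*, and *Fstl5* and *4833422C13Rik*. List medians below are given beside the median of −0.01, and all lists were chosen with earlier results of these data known.

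Genes of committed precursors and new oligodendrocytes outside the selection panel describe the label. They are no independent check of it, since the list was chosen with earlier results of these data known. Of 26 such genes, 23 rose, 2 fell and 1 was not called (median log2 change 3.18, or 2.92 with genes at 0 in precursors set to their bound). *Fyn*, a Src-family kinase that couples axonal signals to process growth, was 171/189 CPM in precursors and 1272/977 in the differentiating cells (log2 2.63 ± 0.14 SE, edgeR adjusted p = 2.3e-08). *Bcas1*, a marker of early myelinating cells, was 136/156 and 872/797 CPM (log2 2.51 ± 0.13 SE, edgeR adjusted p = 1.6e-08). Both genes were higher in every library of the differentiating cells, and *Chn2*, a Rac GTPase-activating protein (log2 4.68 ± 0.16 SE, edgeR adjusted p = 1.8e-09), and *Rras2*, a Ras-like GTPase (log2 4.36 ± 0.31 SE, edgeR adjusted p = 2.5e-07), rose as well. The 2 that fell were *Dll1*, a Notch ligand (log2 −1.62 ± 0.24 SE, edgeR adjusted p = 0.00014), and the proteoglycan *Vcan* (log2 −0.90 ± 0.17 SE, edgeR adjusted p = 0.0012), and *Neu4*, a sialidase, was 367/308 and 286/281 CPM.

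Precursor genes outside the selection panels were reduced but not lost. Of 24 genes, 20 fell, none rose and 4 were not called (median −1.50). *Ptprz1*, a receptor phosphatase of the precursor surface, was 3486/3827 CPM in precursors and 1106/1326 in the differentiating cells (log2 −1.59 ± 0.23 SE, edgeR adjusted p = 0.00014). *Cspg5*, a neuroglycan, fell further (log2 −1.98 ± 0.17 SE, edgeR adjusted p = 1.3e-06), while *Tnr*, which encodes the perineuronal matrix protein tenascin-R, was 669/695 and 772/745 CPM and was not called. These levels average early and late cells, since late cells held 3175892 of the 6423425 UMIs of the retained differentiating cells.

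Division genes were at low levels. Of 25 G2M genes, 22 fell and 3 were not called (median −2.89). Of 23 S-phase genes tested, 9 fell (39.1%, against 17.8% of all genes) and 13 were not called. *E2f8* alone rose (4.35%, against 20.6% of all genes). *Top2a*, topoisomerase II, was 47.3/39.6 CPM in precursors and 2.48/1.38 in the differentiating cells (log2 −4.50 ± 0.38 SE, edgeR adjusted p = 1.3e-06), and *Mki67*, the proliferation marker Ki-67, was 24.9/22.2 and 2.48/0.688 CPM (log2 −3.97 ± 0.54 SE, edgeR adjusted p = 8.5e-05). *Ccnd1*, the G1 cyclin D1, was 561/695 and 164/178 CPM (log2 −1.87 ± 0.12 SE, edgeR adjusted p = 7.5e-08), with 355/389 in early and 2.06/0 in late cells. In microglial barcodes *Top2a* stood at 3.08/5.19 CPM, at or above its level in the differentiating cells. *E2f8*, an atypical E2F repressor, went from 2.41/4.75 to 11.3/13.8 CPM (log2 1.78 ± 0.49 SE, edgeR adjusted p = 0.012), and was not called by DESeq2 (adjusted p = 0.071). Of the cell cycle exit list, 5 of 16 genes tested fell (31.25%, against 17.8% of all genes). Of these, *Ccnd1*, *Ccnd2*, *Ccnd3* and *Ccne1* encode cyclins that drive the cycle and *Btg2* an antiproliferative protein. Only the inhibitor *Cdkn2d* rose (6.25%, against 20.6% of all genes). The called share in either direction (37.5%) was near that of all genes (38.3%). The inhibitor *Cdkn1b* was 48.9/76.0 and 69.6/80.8 CPM and was not called.

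The lineage transcription factors split. Of 30 factors, 9 rose (30.0%, against 20.6% of all genes), 11 fell (36.7%, against 17.8%) and 10 were not called. Their median of 0.15 became −0.16 with library sizes alone. *Myrf*, the regulator of myelin genes, was 11.8/13.4 CPM in precursors, 61.1/56.9 in early, 166/266 in gap, 369/357 in late and 336/348 in mature cells (log2 4.01 ± 0.17 SE, edgeR adjusted p = 5e-09). *Nkx6-2* was 11.0/11.7, 32.4/14.6, 72.1/114, 554/532 and 691/827 CPM (log2 4.54 ± 0.21 SE, edgeR adjusted p = 8.5e-09), and *Zfp536* rose too (log2 2.32 ± 0.14 SE, edgeR adjusted p = 5.2e-08). *St18*, a zinc-finger factor, was counted 436 times in the differentiating cells and 1 time in precursors (edgeR adjusted p = 2.2e-08).

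Among the 11 factors that fell was *Hes5*, a Notch target, at 340.0/485 CPM in precursors, 244/370.1 in early and 4.82/2.54 in late cells (log2 −1.52 ± 0.18 SE, edgeR adjusted p = 3.4e-05), and *Sox5* and *Prrx1* also fell (log2 −1.25 ± 0.19 SE, edgeR adjusted p = 0.00018, and log2 −1.44 ± 0.20 SE, edgeR adjusted p = 0.0001). *Olig1* and *Olig2*, which specify the lineage, fell by less (log2 −0.53 ± 0.12 SE, edgeR adjusted p = 0.0043, and log2 −0.67 ± 0.12 SE, edgeR adjusted p = 0.0006). *Sox10*, the factor shared by all stages, was 439/429 CPM in precursors, 459.7/484 in the differentiating and 357/486 in mature cells, and the difference from precursors was 0.12 ± 0.13 (SE) on the log2 scale.

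Myelin and lipid genes rose against precursors. Of 18 myelin protein genes outside the panels, 17 rose and *Gpm6b* was not called (median 2.58). *Mbp*, which encodes myelin basic protein, was 243/83.3 CPM in precursors, 961/652 in early, 5769/6434 in gap, 9232/8479 in late and 7225/6069 in mature cells (log2 5.00 ± 0.28 SE, edgeR adjusted p = 3.3e-08). Microglial barcodes held 231/124 CPM of *Mbp*, in each library below early cells. *Mal*, a raft proteolipid of compact myelin, was 86.7/22.3 CPM in early and 129.8/137 in gap cells, against 142/48.7 in precursors and 152/75.9 in microglial barcodes, and reached 6759/9943 in late cells (log2 5.49 ± 0.33 SE, edgeR adjusted p = 5.7e-08 for all differentiating cells).

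Of 23 genes of cholesterol synthesis and uptake, 22 rose and *Tm7sf2* was not called (median 1.56). *Hmgcs1*, which makes HMG-CoA, was 68.3/60.4 CPM in precursors, 99.5/58.5 in early, 166/638 in gap, 1066/1112 in late and 492/643 in mature cells (log2 3.10 ± 0.16 SE, edgeR adjusted p = 1.6e-08). Late cells were the highest of the 5 groups in both libraries. Of 17 genes of myelin sphingolipid and fatty acid synthesis, 13 rose and 4 were not called (median 1.44), led by the fatty acid elongase *Elovl7* (log2 4.25 ± 0.19 SE, edgeR adjusted p = 6.7e-09), and *Fa2h*, which hydroxylates myelin fatty acids, rose as well (log2 3.47 ± 0.16 SE, edgeR adjusted p = 6.2e-09).

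Signalling genes moved in both directions. Of 16 Notch genes tested, 8 fell (50.0%, against 17.8% of all genes) and 2 rose (12.5%, against 20.6%), with a median of −0.69. The fallers held the ligands *Dll3* (log2 −1.80 ± 0.23 SE, edgeR adjusted p = 5.6e-05) and *Jag1* (log2 −1.19 ± 0.42 SE, edgeR adjusted p = 0.042) and the receptor *Notch1* (log2 −0.54 ± 0.12 SE, edgeR adjusted p = 0.0042), while the receptor *Notch2* rose (log2 1.46 ± 0.43 SE, edgeR adjusted p = 0.017). The calls of *Jag1*, *Notch1* and *Notch2* were each lost under at least 2 of the alternative settings, as was that of *Grik2* below. Of 23 Wnt genes, 3 rose and 3 fell (26.1%, below the 38.3% of all genes), and *Daam2*, a Wnt modulator of the lineage, rose most (log2 4.55 ± 0.28 SE, edgeR adjusted p = 6.3e-08). Of 20 BMP genes, *Smad7*, an inhibitor of BMP and TGF-β signalling, alone rose (log2 3.19 ± 0.16 SE, edgeR adjusted p = 1.7e-08), which was 5.0% against 20.6% of all genes. Another 8 fell (40.0%, against 17.8%), among them *Bmp7* (log2 −1.72 ± 0.20 SE, edgeR adjusted p = 2e-05) and *Id2*, a BMP target (log2 −1.42 ± 0.15 SE, edgeR adjusted p = 8.2e-06). The called share of BMP genes in either direction was 45.0%, against 38.3% of all genes.

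Listed receptors and channels were more often lower than higher. Of 24 glutamate and GABA receptor genes, 17 fell, 2 rose and 5 were not called (median −1.35). The neuron panel moved the same way, from 174/158 CPM in precursors to 79.0/74.3 in the differentiating cells, as did the astrocyte panel, from 1066/889 to 436/412, and their part in these changes was not tested. *Gria3*, an AMPA receptor subunit, was 237/234 CPM in precursors and 87.3/102 in the differentiating cells (log2 −1.32 ± 0.15 SE, edgeR adjusted p = 1.3e-05), and *Gabra3*, a GABA-A subunit, fell as well (log2 −1.88 ± 0.40 SE, edgeR adjusted p = 0.0025). *Grik2*, a kainate receptor subunit, rose, with 93.7/98.7 CPM in gap cells against 37.1/30.2 in precursors (log2 0.76 ± 0.20 SE, edgeR adjusted p = 0.0086). Of 23 ion channel genes, 13 fell (56.5%, against 17.8% of all genes) and 6 rose (26.1%, against 20.6%), with a median of −1.45. The A-type potassium channel *Kcnd2* fell (log2 −1.52 ± 0.20 SE, edgeR adjusted p = 6.1e-05) and the delayed rectifier subunit *Kcna1* rose (log2 2.39 ± 0.15 SE, edgeR adjusted p = 9.8e-08). A list of growth factor and G protein-coupled receptors also held the nuclear receptors *Rxrg*, *Thra* and *Thrb* and the ATP-gated channels *P2rx4* and *P2rx7*. Of its 23 genes tested, 12 fell (52.2%, against 17.8% of all genes) and 7 rose (30.4%, against 20.6%). Those that rose were led by the lysophosphatidic acid receptor *Lpar1* (log2 6.50 ± 0.29 SE, edgeR adjusted p = 6.2e-09) and *Gpr37* (log2 4.99 ± 0.21 SE, edgeR adjusted p = 4.7e-09).

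Genes of the cytoskeleton and process outgrowth rose in 25 of 35 cases and fell in 4 (median 1.10). *Tubb4a*, a tubulin of oligodendrocytes, was 111/104 CPM in precursors, 727/585 in early, 3029/2279 in gap and 2745/2517 in late cells (edgeR adjusted p = 3.7e-09). *Sirt2*, a tubulin deacetylase, was 429/385, 2429.7/1813, 7918/5219 and 5033/4017 CPM, with 1335/1179 in mature cells (log2 3.13 ± 0.14 SE, edgeR adjusted p = 5.2e-09). *Arpc1b*, a subunit of the actin-nucleating Arp2/3 complex, rose most (log2 5.15 ± 0.20 SE, edgeR adjusted p = 3.7e-09). Of 38 adhesion and matrix genes tested, 15 rose (39.5%, against 20.6% of all genes) and 13 fell (34.2%, against 17.8%). The semaphorin *Sema4d* (log2 5.37 ± 0.17 SE, edgeR adjusted p = 1.6e-09) and the node-forming *Nfasc* (log2 4.72 ± 0.16 SE, edgeR adjusted p = 1.8e-09) were at one end and the proteoglycans *Ncan* (log2 −1.81 ± 0.16 SE, edgeR adjusted p = 1.7e-06) and *Cspg5* at the other.

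**Figure D4:**
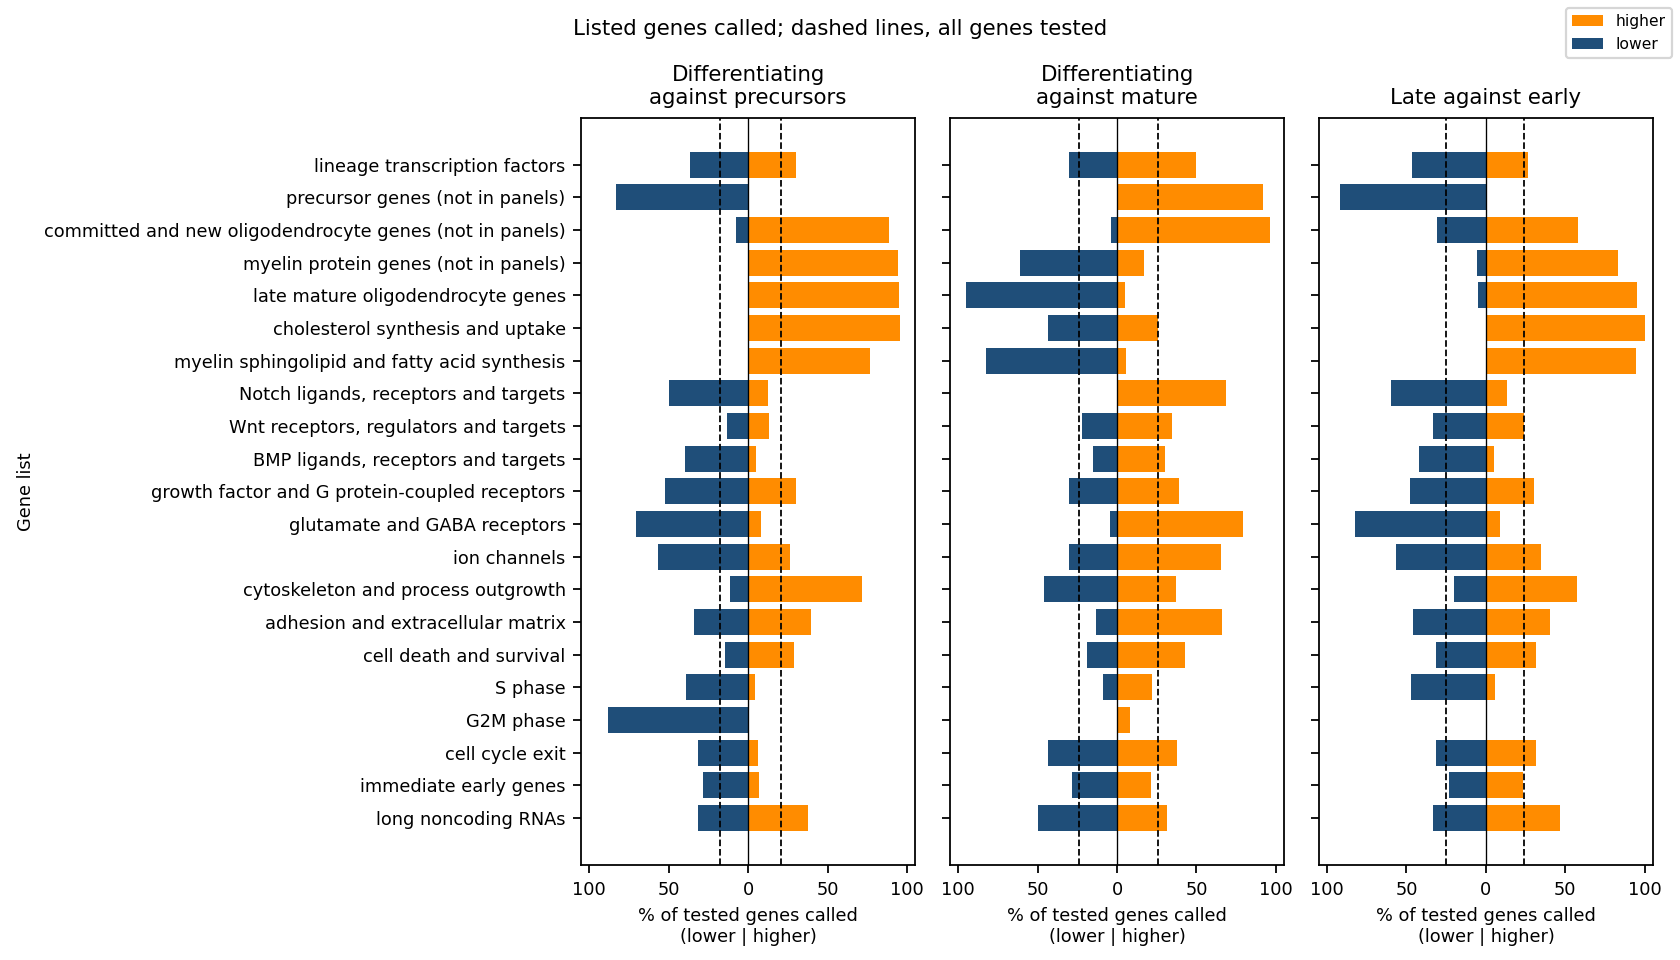
Percentage of tested genes of each list called higher (right) and lower (left) in 3 comparisons: differentiating cells against precursors, differentiating cells against mature cells, and late against early cells. Vertical dashed lines give the share of all genes tested; for the division genes (G2M) 88.0% were lower than in precursors and 8.00% higher than in mature cells, and all 23 cholesterol genes were higher in late than early cells.

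Compared with mature oligodendrocytes, the differentiating cells had higher levels of precursor genes and lower levels of genes of the settled myelinating cell. The comparison called 6183 of 12357 genes (50.0%), 3220 higher (26.1%) and 2963 lower (24.0%), and with library sizes alone 5705 were higher and 1285 lower, as that scaling moved the median of all genes from −0.01 to 0.40. It used the same sums of differentiating cells as the comparison with precursors, so these comparisons are not independent. Of the 24 precursor genes, 22 were higher, none lower (median 4.86), and 25 of 26 committed genes were higher with *Ninj2* lower (log2 −1.23 ± 0.12 SE, edgeR adjusted p = 1.6e-06). Early cells carried the higher levels of several of these genes. *Ptprz1* was 2332/2807 CPM in early, 50.2/39.7 in late and 28.8/12.5 in mature cells, and *Cspg5* was 2105/2441, 17.9/22.0 and 51.6/34.8 CPM, so late cells were below mature cells for *Cspg5*. *Tnr*, in contrast, was 1095/1071, 393/297 and 6.52/1.74 CPM.

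*Tnr* was 772/745 CPM in the differentiating and 6.21/1.66 in mature cells (log2 7.63 ± 0.28 SE, edgeR adjusted p = 5.2e-10). *Neu4* was 286/281 and 1.76/0.832 CPM (log2 7.77 ± 0.19 SE, edgeR adjusted p = 8.6e-11), and *Rassf10* was 60.0/67.8 and 0.117/0.312 CPM (log2 8.02 ± 0.31 SE, edgeR adjusted p = 6.9e-10). *Chst5*, a sulfotransferase, was counted 195 times in the differentiating and 2 times in mature cells, and *Plpp4*, a lipid phosphatase, 230 and 3 times, which were ratios of 271 (exact 95% interval 73.9 to 2250.0) and 213 (exact 95% interval 71.9 to 1039). Late cells held 0.688/0 CPM of *Chst5* and 0/0 of *Plpp4*.

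Genes of late mature oligodendrocytes were lower in 19 of 20 cases, with *S100b* the exception (median −2.49), although 19 of the 20 were also above precursors. *Ptgds*, prostaglandin D synthase, was 224/134 CPM in precursors, 2338/2278 in the differentiating and 13710.4/19783 in mature cells (log2 −2.86 ± 0.23 SE, edgeR adjusted p = 3.9e-07). *Il33*, a nuclear alarmin cytokine, was 8.02/4.75, 38.3/22.4 and 402/440.2 CPM (log2 −3.79 ± 0.18 SE, edgeR adjusted p = 2.8e-09), and *Hapln2*, a hyaluronan link protein of nodes, was 11.2/6.34, 93.0/47.8 and 507/459 CPM (log2 −2.81 ± 0.16 SE, edgeR adjusted p = 1.7e-08). Late cells remained below mature cells for all 3 genes, with 3681/4706 CPM of *Ptgds*, 59.8/50.7 of *Il33* and 204/111 of *Hapln2* against 14395/20691, 422/460.4 and 533/480.0 in mature cells on the scale of all 12 sums. *Abca8a*, *Adamtsl4* and the transcripts *A230001M10Rik*, *C030029H02Rik* and *Gm4524* completed the 8 largest falls.

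Myelin protein genes were not all low. Of 18, 11 were lower than in mature cells, 3 higher and 4 not called (median −0.66). *Mal* was lower (log2 −1.97 ± 0.26 SE, edgeR adjusted p = 4.2e-05), while *Cd9*, a tetraspanin, was higher, at 5341/3454 CPM in early and 7247/7687 in gap cells against 1744/1658 in late and 1495/1485 in mature cells (log2 1.28 ± 0.14 SE, edgeR adjusted p = 4.8e-06). *Mbp* was 6881/5803 CPM in mature and 4847/4223 in the differentiating cells on the scale of the 6 sums and was not called. Of 23 cholesterol genes, 6 were higher (26.1%, the same share as of all genes) and 10 lower (43.5%, against 24.0% of all genes). Their median of −0.13 turned to 0.29 with library sizes alone. *Insig1*, which holds back the pathway when sterols are plentiful, was lower (log2 −0.88 ± 0.12 SE, edgeR adjusted p = 6.4e-05). The sphingolipid and fatty acid genes were lower in 14 of 17 cases.

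Among regulators, 15 of 30 transcription factors were higher (50.0%, against 26.1% of all genes) and 9 lower (30.0%, against 24.0%). *Sox4* was 442/529 CPM in early, 772/706 in gap and 323/152 in late cells against 32.0/13.3 in mature cells (log2 4.22 ± 0.24 SE, edgeR adjusted p = 1.7e-08), and microglial barcodes held 227/187 CPM of it. *Sox6*, a repressor of myelin genes, was 299/236, 224/129, 42.0/24.5 and 2.46/0.217 CPM (log2 6.92 ± 0.32 SE, edgeR adjusted p = 3.1e-09). *Nkx2-2* was higher as well (log2 1.51 ± 0.16 SE, edgeR adjusted p = 5.9e-06), with early cells at 197/180.0 CPM and late cells at 38.5/26.2. Of 16 Notch genes, 11 were higher and none lower (median 1.59), and of 24 glutamate and GABA receptor genes 19 were higher, with *Gria2* at 535/439.6 CPM in the differentiating and 38.6/19.6 in mature cells (log2 4.11 ± 0.16 SE, edgeR adjusted p = 9.2e-10).

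*Marcks*, a membrane-linked actin-binding protein, had the largest rise against mature cells among the listed cytoskeletal genes, at 2084/2235 CPM in early and 2801/2237 in late against 65.0/27.3 in mature cells (log2 5.73 ± 0.28 SE, edgeR adjusted p = 3.9e-09). Microglial barcodes held 2336/2835 CPM of *Marcks*, and the summed microglial panel was 116/127 CPM in the differentiating cells and 179/101 in mature cells. Of all 35 cytoskeletal genes, 13 were higher (37.1%, against 26.1% of all genes) and 16 lower (45.7%, against 24.0%). Their median of −0.23 turned to 0.19 with library sizes alone. Of 38 adhesion and matrix genes, 25 were higher and 5 lower (median 1.02). Of 25 G2M genes, only *Cks1b* and *Hmgb2* were called, both higher, and *Top2a* was 2.93/1.25 CPM in mature cells.

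The comparison of late with early cells asked how gene levels differed between these groups, which give no order in time. It called 5604 of 11375 genes (49.3%), 2748 higher in late cells (24.2%) and 2856 lower (25.1%), and with library sizes alone 1497 and 5188, where the median of all genes moved from −0.04 to −0.55. The cells had been split by the 12 outer-panel genes, which were not tested, and late cells also held more UMIs per cell, as given above. Lipid and myelin genes were higher in late cells: all 23 cholesterol genes (median 2.36), 16 of 17 sphingolipid and fatty acid genes (2.20), 15 of 18 myelin protein genes (2.94) and 19 of 20 late mature genes (3.94). Precursor genes were lower in 22 of 24 cases (−4.32), receptor genes for glutamate and GABA in 19 of 23 (−2.20) and ion channels in 13 of 23 (−2.35), while 8 of the 23 ion channels (34.8%) were higher.

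The cholesterol rise was shared by every step listed. *Hmgcs1* went from 99.5/58.5 CPM in early to 1066/1112 in late cells (log2 3.78 ± 0.21 SE, edgeR adjusted p = 2.7e-09), and *Srebf2*, the regulator of the pathway, had the smallest rise of the list, from 55.0/29.2 to 117/134 (log2 1.55 ± 0.23 SE, edgeR adjusted p = 5.9e-05). In both libraries the late level of both genes was above the early one. Among transcription factors 8 rose (26.7%, near the 24.2% of all genes) and 14 fell (46.7%, against 25.1%). *Nkx6-2* (log2 4.52 ± 0.22 SE, edgeR adjusted p = 1.2e-09) and *Zfp536* (log2 3.40 ± 0.15 SE, edgeR adjusted p = 4.1e-10) rose most, and *Hes5* was among the larger falls (log2 −6.30 ± 0.36 SE, edgeR adjusted p = 3.9e-09).

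Committed genes did not differ in 1 direction between these groups. In late cells 15 of 26 were higher (57.7%, against 24.2% of all genes) and 8 lower (30.8%, against 25.1%). *Prom1*, which encodes prominin-1, was 1.51/1.54 CPM in early and 191/193 in late cells (log2 6.94 ± 0.28 SE, edgeR adjusted p = 1.9e-10) and *Cnksr3*, a scaffold of Ras signalling, 16.6/13.8 and 301/235 (log2 4.14 ± 0.25 SE, edgeR adjusted p = 7.4e-09). *Gp1bb* went the other way, from 21.9/13.1 to 4.13/0.845 CPM (log2 −2.82 ± 0.63 SE, edgeR adjusted p = 0.002), as did *Neu4*, from 523/495 to 52.3/24.5 CPM (log2 −3.73 ± 0.19 SE, edgeR adjusted p = 1.8e-09). *Fyn* and *Bcas1* were lower in late cells by a smaller margin (log2 −0.83 ± 0.16 SE, edgeR adjusted p = 0.00058, and log2 −0.61 ± 0.13 SE, edgeR adjusted p = 0.0016), and both stood higher in gap cells (2531/2165 and 1651/1861 CPM) than in early (1449/1058 and 925/805) or late cells (859/564 and 643/498). With cells thinned to 2000 UMIs neither was called, and *Bcas1* changed sign (log2 0.12, edgeR adjusted p = 0.71).

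Several genes were counted in late cells and not in early cells. *Klk6*, a secreted protease of mature oligodendrocytes, was counted 293 times in late cells and 0 times in early cells, so it was at least 96.9-fold higher against a floor of 3 counts over the early group. *Nipal4* was counted 224 times and at least 74.1-fold higher, and *Il23a*, a subunit of the cytokine interleukin-23, 130 times and at least 43.0-fold higher. *Alox5*, the leukotriene-forming 5-lipoxygenase, was counted 72 times and at least 23.8-fold higher.

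Of these, *Il23a* and *Alox5* stood lower in mature than in late cells in both libraries. *Il23a* stood at 44.7/54.9 CPM in late and 2.95/2.72 in mature cells, was listed at 0 in precursors and was 0.146/0 CPM in microglial barcodes (log2 2.89 ± 0.32 SE, edgeR adjusted p = 1.1e-05 for all differentiating against mature cells). *Alox5* stood at 26.1/28.7 CPM in late and 0.616/0.217 in mature cells, but microglial barcodes held 24.8/20.4 CPM of it. The microglial panel was 123/98.9 CPM in late cells, and its part in the *Alox5* value was not tested. *Klk6* and *Nipal4*, in contrast, were 293/245 and 62.7/87.5 CPM in mature cells. *Rasal1*, *Fcnaos*, *Itgad* and *Xrcc3* completed the 8 largest rises.

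In the other direction, *Grin3a*, an NMDA receptor subunit, was counted 284 times in early cells and 0 times in late cells, at least 95.4-fold lower in late cells. *Plpp4* was at least 71.2-fold, *Etv4*, an ETS transcription factor of growth factor signalling, at least 55.4-fold, and *Bmp7* at least 33.9-fold lower. *Itga9*, *Cpne8*, *Slc7a3* and *Tenm1* were also counted 0 times in late cells. All 8 were also present in precursors, *Grin3a* for example at 129/166 CPM, and were near 0 in mature cells.

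Values of some other cell classes moved with these stages. The summed astrocyte panel, led by *Slc1a2* (by *Slc1a3* in mature cells of library 2) and with none of its 6 genes at 0 in these sums, was 1121/941 CPM in precursors, 633/696 in early, 249/192 in late and 468/344 in mature cells, so it was lower in late than in early cells in both libraries. The neuron panel, led by *Snap25* in precursors and early cells and with none of its 6 genes at 0, was 183/168 CPM in precursors, 122/123 in early, 40.6/38.0 in late and 61.9/39.0 in mature cells. The neuroblast panel, led by *Dcx* in precursors and early cells, was 109/85.6, 55.0/60.8, 16.5/16.1 and 44.8/16.3 CPM in that order, with at most 2 of its 6 genes at 0 in any of these sums. Both panels were lower in early cells than in precursors and lower again in late cells, in both libraries. The ependymal panel was higher in late than in early cells in both, at 15.8/39.7 against 6.79/0 CPM, and 33.9/49.7 in mature cells. It rested on 23/47 UMIs in late and 9/0 in early cells. *Foxj1* led it in late and mature cells, and 3 of its 6 genes were at 0 in late cells of each library. Without TMM, *Foxj1* made up 7.42/30.2 of the 13.1/33.0 CPM of the ependymal panel in late cells. In gap cells the endothelial panel was 180/45.6 CPM, the mural panel 28.8/319 and the microglial panel 123/197, so these values differed between the libraries. In all retained differentiating cells the mural panel was 147/29.9 CPM, led by *Vtn*, the endothelial panel 86.2/44.0, led by *Itm2a*, and the macrophage panel 5.51/3.78, with 3 of its 6 genes at 0 in each library. The erythroid panel was 79.8 CPM in the differentiating cells of library 1, 2269.9 in its precursors and 1757 in its mature cells. In library 2 it was 14.3 CPM in precursors, lower than that in the differentiating cells and 697 in mature cells, so haemoglobin RNA was highest in the precursors of library 1. In the 9 both-panel cells of library 2 the microglial panel was 654 CPM, against 121 in the 34 both-panel cells of library 1. The part of all these panels in the results was not tested. Without the both-panel cells 4626 genes were called against precursors and 5841 against mature cells, counts that do not say whether the same genes were called.

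**Figure D5:**
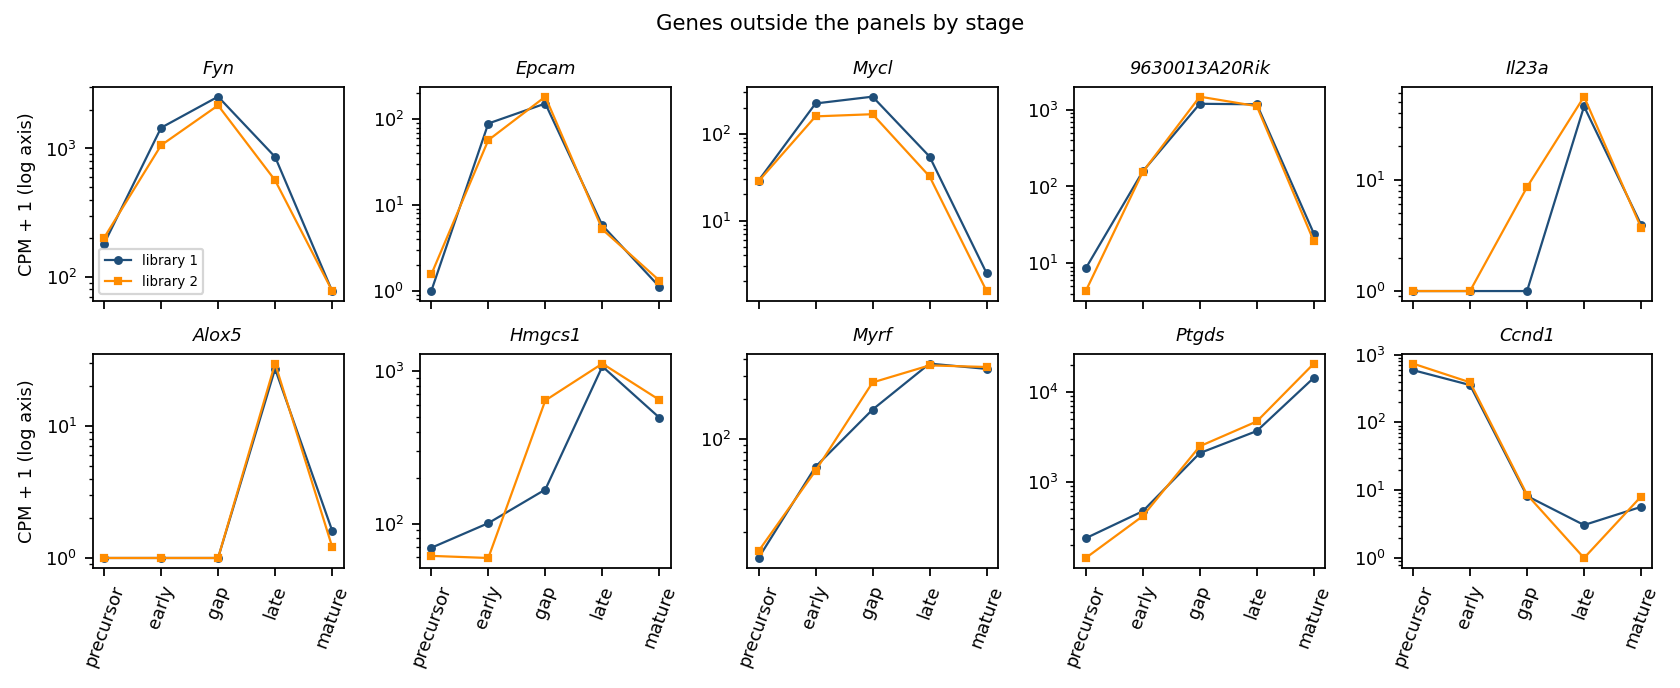
Level (CPM with 1 added, log axis) of 10 genes outside the panels in precursors, early, gap, late and mature cells, one line per library. *Fyn*, *Epcam* and *Mycl* are highest in early or gap cells, *9630013A20Rik* in gap cells, *Il23a* and *Alox5* in late cells, *Hmgcs1* in late cells and *Ccnd1* in precursors. In late cells *Myrf* is near its level in mature cells and *Ptgds* is below it.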

How the data were processed

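The 2 libraries were read as deposited: per the labels and file headers, the authors made UMI counts per gene and barcode with Cell Ranger (4.0 in the labels, 4.0.0 in the matrix header) against mm10, from striatal suspensions run on v2 and v3 kits, with the kit of each library not given in the sources used here. The members, gene lists and tests were chosen with earlier results of these data known. Counts were left unnormalized, summed per library and stage, and tested in edgeR 4.0.16 (R 4.3.3; filterByExpr, TMM, quasi-likelihood, library as block, Benjamini-Hochberg adjusted p under 0.05), and CPM was computed here. The library block rests on the sums of 1 library sharing its suspension. DESeq2 1.42.0 was an alternative. Scrublet (scanpy 1.11.5, expected rate 6%) marked 1.52% and 2.89% of barcodes. A barcode was left out when the detected share of a panel of another class reached its best oligodendrocyte panel's. The 21 lists held 487 genes, 486 of them among the 32285 genes in the files. Genes were named as the 8 largest changes in each direction per comparison at 20 CPM or more in the higher stage with the same sign in both libraries, the 10 highest and 5 lowest for the contrast with both outer stages, and a few members of each list (its largest changes or a well-known member). This last rule was not followed strictly: some of a list's largest changes are not printed, and other listed genes that are named, such as *Chn2* and *Grik2*, were chosen after their values were seen. Some genes these rules name are not reported here. The fits were tested on simulated data, but the outcome is not reported here and no statement above rests on it. Alternatives were another scaling, test, filter, depth, rule threshold and choice of cells.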

Additional observations from a re-analysis of the deposited data

How the results depend on the processing

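The share of barcodes selected, 4.40%, became 1.98% on barcodes thinned to 2000 UMIs, 1.79% with 4 or more selection genes, 3.50% without doublets and other-class cells and 4.81% under 20% mitochondrial UMIs; leaving out a library gave 4.33% to 4.49%. Thinning cells to 2000 UMIs left 1154 genes called against precursors, 3230 against mature cells, 1026 in the contrast with both outer stages and 1770 for late against early cells, and 172 listed genes (315 at full depth), 133 (226) and 208 (318) against precursors, in that contrast and for late against early cells. DESeq2 called 2931 against precursors, 4041 against mature cells and 1451 in the contrast. Without the other-class check, 3092 genes were called against precursors and 1248 in the contrast with both outer stages. Its 618 lower calls became 1450 with 4 or more selection genes, 1301 with stages assigned at 5000 UMIs and 203 with no replicate block. With no replicate block that contrast called 1541, and no other count of calls moved by over 1.5 times without the block. Late against early cells gave 3720 calls with 4 or more selection genes and 3196 with stages assigned at 5000 UMIs, a setting chosen after seeing the data, as was leaving out both-panel cells. *Bcas1* in late against early cells turned to log2 0.12 on thinned cells and 0.049 with stages assigned at 5000 UMIs. The 100 named values were compared under 12 settings, except that 91 had a value on thinned cells and 81 without both-panel cells; these were the 2 reversals, and a call was lost in 32 further pairs of value and setting. The causes were not tested. A single library leaves 1 sum per stage and no test, so only its values were computed. None of the 100 changed sign, but genes named by the size of their change had been required to share their sign in both libraries. Without library 1, 29 values moved by more than the SD between libraries, and 26 did without library 2. That SD rests on 2 values, so these counts say little about stability.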

Other observations

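Of 21 cell death and survival genes tested, 6 rose and 3 fell against precursors (42.9% called, near the 38.3% of all genes), and 9 were higher and 4 lower than in mature cells (61.9%, against 50.0% of all genes). Of 14 immediate early genes, 1 rose (7.14%, against 20.6% of all genes) and 4 fell against precursors (28.6%, against 17.8%). The called share in either direction was 35.7%, near the 38.3% of all genes. Compared with precursors, 6 of 16 long noncoding RNAs rose (37.5%, against 20.6% of all genes) and 5 fell (31.25%, against 17.8%). Their median log2 change of 0.26 became −0.06 with library sizes alone.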
